A study of Mus musculus with 3 samples.

Results

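The globins are the protein chains of haemoglobin, and 7 of their genes were read here in whole mouse embryos that lacked small Maf proteins: Hba-x, Hba-a1, Hbq1a and Hbq1b of the alpha-globin cluster, and Hbb-y, Hbb-bh1 and Hbb-bt of the beta-globin cluster. The genes were chosen by name, and their probes were found through the RefSeq accession printed with each array feature; 11 of 41170 probes belonged to them. All 7 were among the 13184 genes that gave a signal well above background on at least 1 array, and all 11 probes were above background on all 3 arrays. No globin spot was saturated or marked as an outlier.

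There were 3 samples, each a single-colour Agilent array hybridised with Cy3-labelled RNA from a pool of 3 whole embryos of mixed background. The first pool was MafF-/-:MafG-/-:MafK-/- at E10.5 (triple null, also called the mutants), the second MafF-/-:MafG+/+:MafK-/- at E10.5 and the third MafF-/-:MafG+/+:MafK-/- at E9.5 (both called MafG+/+ below). Every pool therefore lacked MafF and MafK, and no pool was fully wild type. A group is a single array without a replicate, so no difference below was tested, and "higher" and "lower" describe these 3 arrays.

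Haemoglobin joins alpha-like and beta-like chains around haem. In the mouse, primitive red cells arise in the yolk sac blood islands, fill the early circulation and make the embryonic chains zeta (Hba-x), epsilon-y (Hbb-y) and beta-h1 (Hbb-bh1) beside alpha. Definitive red cells from the foetal liver follow later and make the adult beta chains. Both clusters are driven by distant enhancers, which bind the erythroid factors Gata1 and Klf1 and also NF-E2, a dimer of p45 (Nfe2) with a small Maf protein.

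A level is given as the log2 intensity of a probe minus the 75th percentile of the non-control spots on its array, so a level of 1 is 2-fold above that percentile. Levels serve to compare 1 probe between arrays and not different probes with each other. The scanner software's own error for a difference between 2 arrays was 0.204 to 0.233 (log2) for the globin probes, which covers the spot and leaves out differences between embryos. As a check of the labels, Mafg lay at -7.74 in the triple null pool, which is not well above background, at 0.48 in MafG+/+ embryos of E10.5 and at 1.03 in those of E9.5. This put Mafg at least 173-fold lower in the mutants than in their stage controls. Xist gave signal for the E10.5 MafG+/+ pool alone, while 4 Y-linked genes (Ddx3y, Eif2s3y, Kdm5d, Uty) gave signal for the other pools and not for it. Each difference from that pool is therefore also one between pools of different sex, and these cannot be told apart.

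The proximal promoters are described before the values, and no searched motif was found in every globin promoter. RefSeq's promoter table for build GRCm38.p6 held 6 of the 7 genes, Hbb-bh1 not among them. Printed below are the 130 bases before the start site of 5 genes, 5′ to 3′ on the gene's own strand, with matches to the searched motifs in capitals. The regions are chr11:32276470-32276599 (plus strand) for Hba-x, chr11:32283542-32283671 (plus strand) for Hba-a1, chr11:32286834-32286963 (plus strand) for Hbq1b, chr7:103853208-103853337 (minus strand) for Hbb-y and chr7:103813924-103814053 (minus strand) for Hbb-bt.
Hba-x: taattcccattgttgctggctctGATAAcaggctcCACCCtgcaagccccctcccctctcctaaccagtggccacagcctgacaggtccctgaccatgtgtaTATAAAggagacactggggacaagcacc
Hba-a1: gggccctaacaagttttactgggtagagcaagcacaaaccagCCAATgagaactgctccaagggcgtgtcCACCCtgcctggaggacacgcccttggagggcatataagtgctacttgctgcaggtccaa
Hbq1b: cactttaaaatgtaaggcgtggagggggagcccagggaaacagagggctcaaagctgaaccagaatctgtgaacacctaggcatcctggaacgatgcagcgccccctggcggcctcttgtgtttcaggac
Hbb-y: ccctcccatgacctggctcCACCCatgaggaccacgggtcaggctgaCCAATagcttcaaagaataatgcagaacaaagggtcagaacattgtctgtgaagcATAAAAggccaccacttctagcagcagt
Hbb-bt: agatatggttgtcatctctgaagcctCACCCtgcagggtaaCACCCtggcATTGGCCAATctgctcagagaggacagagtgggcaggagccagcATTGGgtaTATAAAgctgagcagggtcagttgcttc

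Motifs were searched on both strands in the 250 bases before and 50 bases after each start site, in 6 globin windows and in all 32851 windows of the table. CACCC, the core of Klf1 sites, was found in 4 of the 6 (Hba-x, Hba-a1, Hbb-y and Hbb-bt), beside 57.5% of all windows; in Hbb-bt it lay at -140, -104 and -89 from the start site. GATAA, a form of the GATA factor site, was found in the same 4, beside 25.4%. CCAAT was found in 5, all but Hba-x, beside 37.4%, and in Hbb-bt it occurred on both strands side by side from -80 to -71. TATAAA began at -28 in Hba-x and Hbb-bt (13.6% of windows), and ATAAAA at the same place in Hbb-y (18.5%). The small Maf site with an AP-1 core (0.423% of windows), its core TGANTCA alone (7.81%) and the longer CACCC box CCACACCC, which holds CACCC (3.56%), had no match in the 6 windows; these letters are not in these windows, and the distant enhancers were not searched. Hbq1a and Hbq1b were alike in 286 of 300 bases and Hba-a1 and Hba-a2 in all 297 aligned bases, while Hbb-bt and Hbb-bs matched in 226 of 289. Hba-a2, Hbb-bs, Hbb-b1 and Hbb-b2 had no probe matched through an accession, and the probes' own sequences were not used here, so how far a probe also binds the transcript of a near-identical neighbour was not tested.

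**Figure D1:**
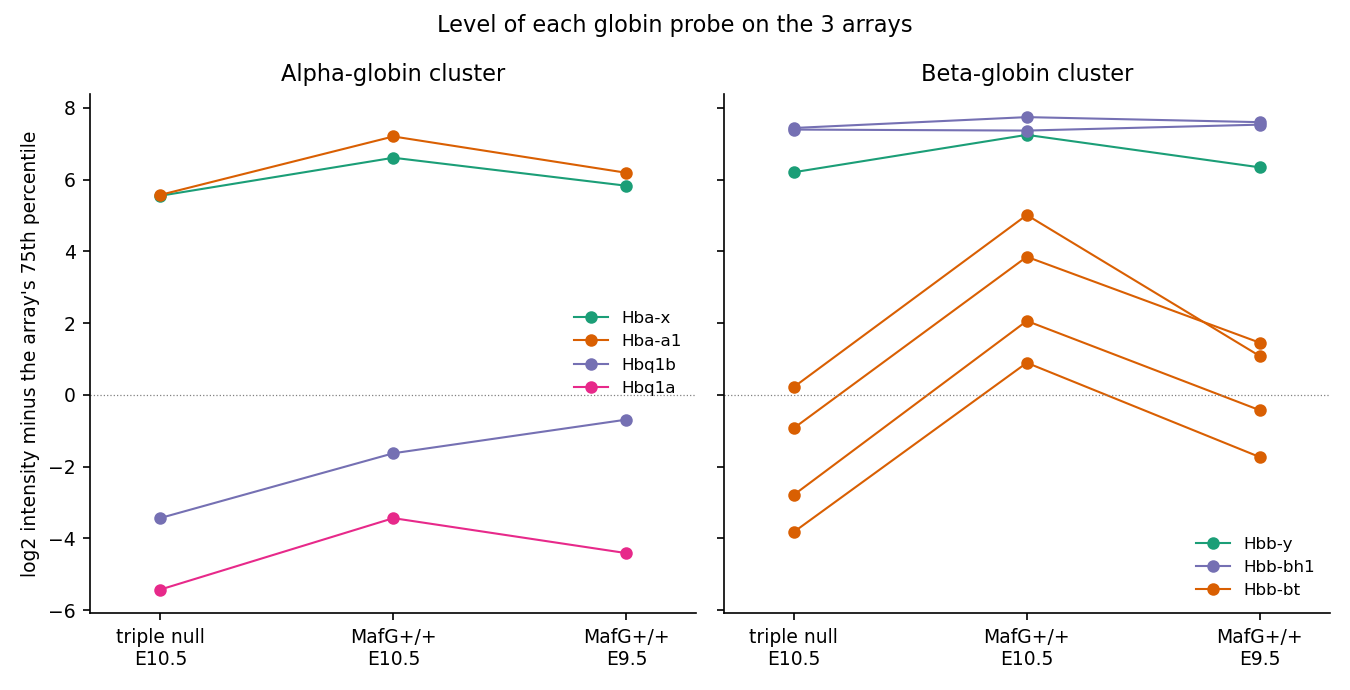
Level of each of the 11 globin probes (log2 intensity minus the 75th percentile of its array, vertical axis) on the 3 arrays (horizontal axis), with a line joining 1 probe's values. The 4 Hbb-bt probes peak together on the E10.5 MafG+/+ array, the 2 Hbb-bh1 probes stay between 7.37 and 7.74, and Hbq1b has its highest value on the E9.5 array.

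At E10.5 the triple null and MafG+/+ pools differ by design in Mafg alone, since both lack the other small Maf genes, but they also differ in sex. Of the 7 globin genes, 6 were lower by 2-fold or more in the mutants, beside 4.47% of the 12529 genes with signal in both pools, and none was higher by 2-fold or more, beside 0.982%. In either direction 5.45% of genes were so far apart. The median of the 7 differences was -1.63 (log2), beside 0.06 over all genes. The adult beta gene Hbb-bt stood farthest down, the alpha and theta genes followed, the embryonic genes Hba-x and Hbb-y were close to 2-fold lower, and Hbb-bh1 was near 0. The comparison uses whole embryos, so fewer red cells and less globin RNA in each red cell cannot be told apart. Between the triple null and E9.5 MafG+/+ pools 0.783% of all genes were 2-fold apart in either direction. Whether the mutant pool as a whole was at an earlier stage was not tested.

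Hba-x encodes zeta-globin, the embryonic alpha-like chain. Its probe lay at 5.55 on the triple null array, at 6.61 on the E10.5 MafG+/+ array and at 5.83 on the E9.5 array. The level was highest at E10.5 MafG+/+ and was 2.08-fold lower in the mutants of that stage.

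Hba-a1 encodes alpha-globin, which both primitive and definitive red cells use. Its levels were 5.58, 7.20 and 6.19 for the triple null, E10.5 MafG+/+ and E9.5 MafG+/+ pools. The triple null pool was 3.09-fold lower than the MafG+/+ pool of its stage, a larger difference than that of Hba-x on the same chromosome, by 1.63 against 1.06 log2 units in size. Whether the probe also reads Hba-a2, the second alpha gene of the cluster, was not tested.

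Hbq1a and Hbq1b encode theta-globin chains, whose part in haemoglobin is not established. In RefSeq's gene order each follows an alpha gene: Hbq1b comes after Hba-a1, and Hbq1a after Hba-a2 at the far end of the cluster. Hbq1a was dim, with intensities of 25.0, 131 and 49.9 for the triple null, E10.5 MafG+/+ and E9.5 MafG+/+ pools, and levels of -5.43, -3.44 and -4.41. It was 3.97-fold lower in the mutants than at E10.5 MafG+/+; with normexp background correction the difference was -0.95, under 2-fold.

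Hbq1b had levels of -3.43, -1.63 and -0.69 in the same order. It was 3.50-fold lower in the mutants than in the E10.5 MafG+/+ pool. It was also the 1 member whose level was higher at E9.5 than at E10.5 by more than its scanner error.

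In the beta cluster, Hbb-y encodes epsilon-y globin, an embryonic chain. Its levels were 6.21 for triple null, 7.25 for E10.5 MafG+/+ and 6.34 for E9.5 MafG+/+. The triple null pool was 2.06-fold lower than the MafG+/+ pool at E10.5, about as far as Hba-x, and the 2 bright embryonic probes have the same order over the 3 arrays.

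Hbb-bh1, the neighbour of Hbb-y and another embryonic chain, was read by 2 probes. The first lay at 7.44, 7.74 and 7.60 for the triple null, E10.5 MafG+/+ and E9.5 MafG+/+ pools, and the second at 7.40, 7.37 and 7.53. Their differences between both E10.5 pools were -0.30 and 0.03, so the probes did not agree in sign.

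Spike-in probes were read beside the Hbb-bh1 differences by signal strength. The brightest probe for Agilent's spike-in control RNA gave intensities of 299191, 303094 and 293966 on the 3 arrays, in the range of the Hbb-bh1 probes (181600 to 304286). After scaling it differed by 0.38 between triple null and E10.5 MafG+/+, whereas 6 of the 8 dimmer spike-in probes above background differed by between -0.05 and 0.05, the others by -0.07 and 0.26. The brightest spot of Hbb-bh1 reached 46.5% of the scanner's saturation value. The Hbb-bh1 mean, at -0.14, had the opposite sign to this shift of 0.38 at high signal. How the shift bears on the size of the Hbb-bh1 difference was not tested. Spike-in probes of 91185 to 117977 differed by 0.03 and 0.26 near the signals of Hba-x, Hba-a1 and Hbb-y.

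**Figure D2:**
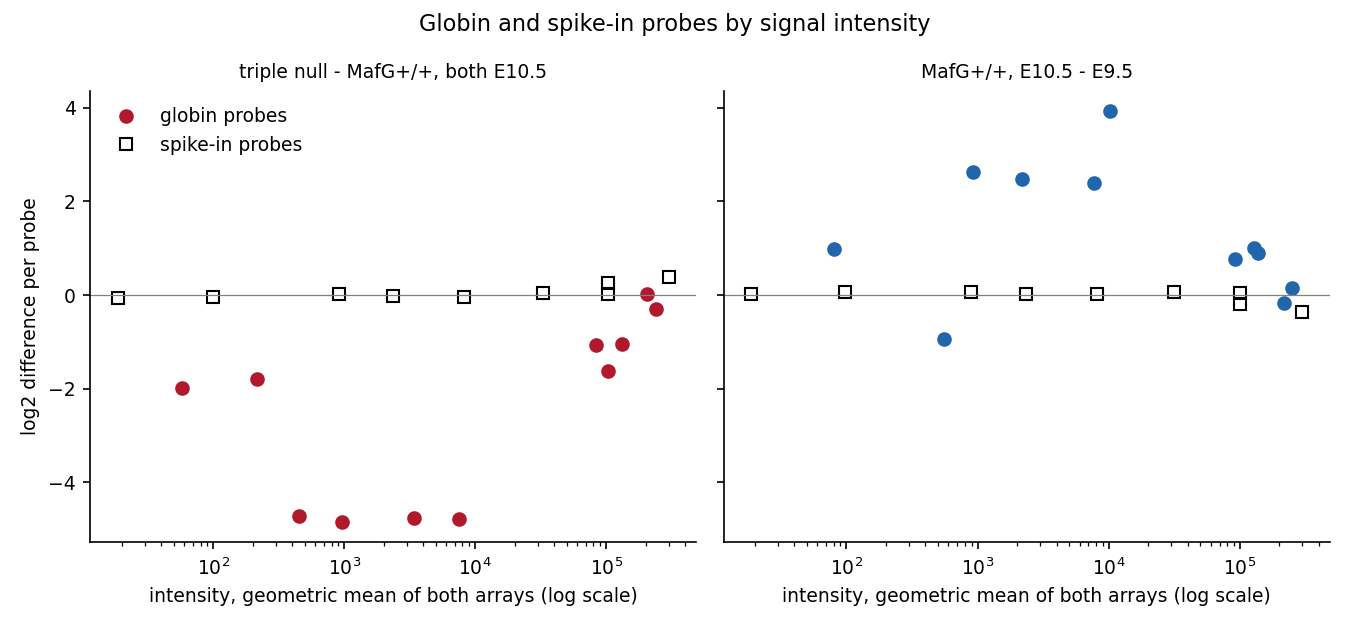
Log2 difference per probe (vertical axis) against the geometric mean intensity of both arrays (horizontal axis, log scale) for the 11 globin probes (filled circles) and the 9 spike-in probes above background (open squares), for the E10.5 pools (triple null minus MafG+/+) (left) and E10.5 MafG+/+ minus E9.5 (right). The brightest spike-in lies at 0.38 on the left and -0.37 on the right, and the 4 Hbb-bt probes lie between -4.85 and -4.72 on the left, far from every spike-in probe.

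Hbb-bt encodes an adult beta chain, and 4 probes carried its accession. Their levels on the triple null array were 0.22, -0.93, -2.79 and -3.82. On the E10.5 MafG+/+ array the same probes lay at 5.01, 3.85, 2.06 and 0.89, and on the E9.5 array at 1.08, 1.45, -0.43 and -1.73. Each probe was lowest in the triple null pool and highest at E10.5 MafG+/+.

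The 4 differences between both E10.5 pools were -4.80, -4.78, -4.85 and -4.72, with a standard deviation over probes of 0.05, although intensities at E10.5 MafG+/+ ran from 2639 to 45894. Their mean of -4.79 was the lowest of all 12529 genes. The probes were close to each other at every signal strength; they share both RNA pools and are not replicates of the embryos.

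**Figure D3:**
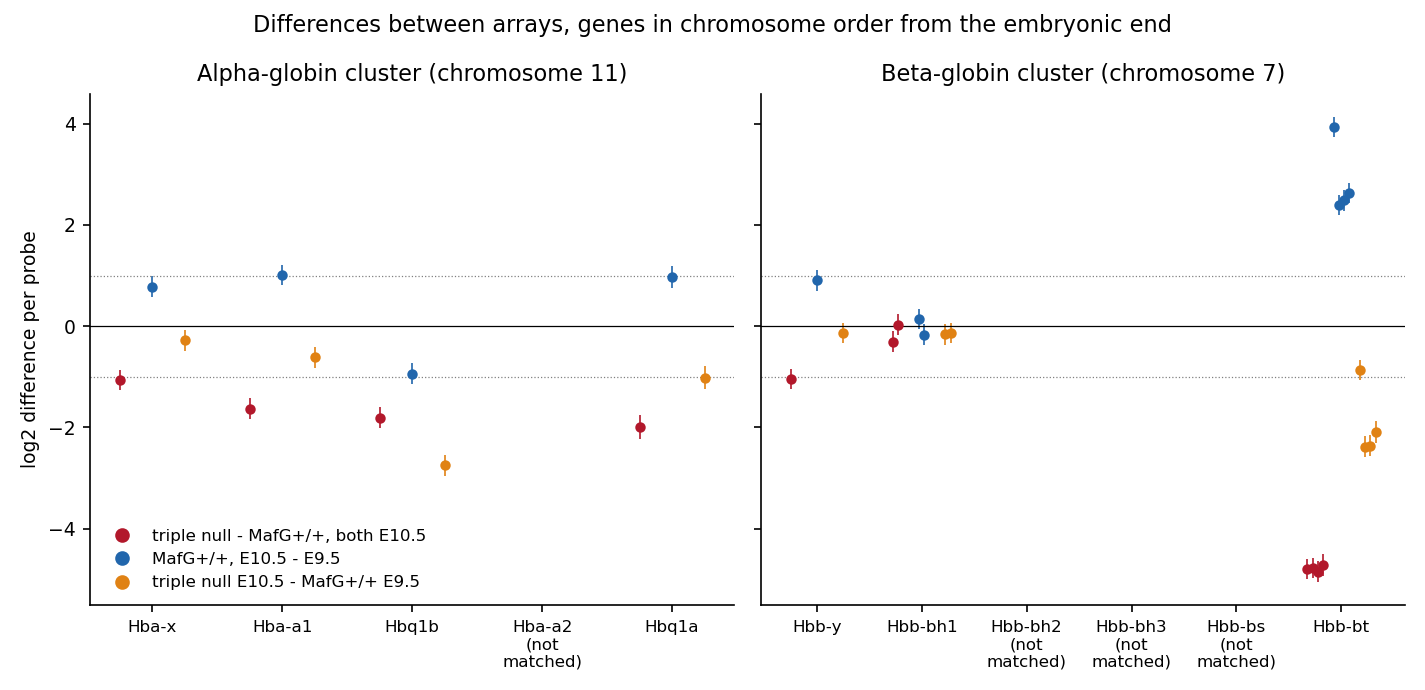
Log2 difference per probe (vertical axis) for the genes of both clusters in chromosome order from the embryonic end (horizontal axis), with bars for the scanner software's error and dotted lines at 2-fold; genes marked as not matched had no probe with their accession. In the beta cluster the difference between both E10.5 pools runs from -1.04 at Hbb-y over -0.14 at Hbb-bh1 to -4.79 at Hbb-bt, and in the alpha cluster from -1.06 at Hba-x to -1.99 at Hbq1a (-0.95 with normexp background correction).

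Between both E10.5 pools the differences had no steady order along the beta cluster, and along the alpha cluster their order depended on the processing. In the beta cluster on chromosome 7, Hbb-bh1 lies between Hbb-y (-1.04) and Hbb-bt (-4.79) and was at -0.14. In the alpha cluster on chromosome 11 the difference grew from Hba-x (-1.06) at the embryonic end over Hba-a1 (-1.63) and Hbq1b (-1.81) to Hbq1a (-1.99). With normexp background correction the same genes were at -1.08, -1.66, -1.24 and -0.95, which is not a steady order. With quantile normalization they were at -1.28, -1.85, -1.77 and -1.91, again without one. A list of genes named as neighbours of the alpha cluster had 8 above background. Their places in the mouse were not checked, and some may not flank the cluster. None of the 8 was 2-fold apart, beside 5.45% of all genes, and their median was 0.10. Nprl3, whose introns hold the alpha-globin enhancers, was at 0.23, and Rhbdf1, at 0.40, was the farthest from 0.

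Bright genes were also counted apart. Of 337 genes with a mean level of 5 or more, a limit chosen after the data were seen, 3 were at least 2-fold lower in the mutants (0.89%), and these were Hba-a1, Hba-x and Hbb-y; the 1 gene higher (0.297%) was Myl7, a heart muscle light chain. The same share of these genes, 0.297%, was higher in E10.5 than E9.5 MafG+/+ embryos, and that 1 gene was Hba-a1.

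The comparison of MafG+/+ embryos at E10.5 with those at E9.5 sets pools a day apart side by side, both without MafF and MafK. These pools also differ in sex, which cannot be told apart from the day. At least 2-fold higher at E10.5 were 2 of the 7 genes, Hbb-bt and Hba-a1, beside 4.12% of 12514 genes with signal in both pools. None was lower by 2-fold, beside 1.07% of genes, and 5.19% were so far apart in either direction. Another 3 were higher by less than 2-fold, at 0.98 for Hbq1a (0.45 with normexp background correction), 0.91 for Hbb-y and 0.78 for Hba-x. Hbb-bh1 was at -0.01 and Hbq1b, at -0.94, was lower at E10.5. The globin median was 0.91, beside -0.05 over all genes. Hba-a1, at 1.01, lies at the limit: scaled on the median of detected probes it was 0.999, which leaves Hbb-bt alone past 2-fold, while quantile normalization and spike-in scaling each put 3 genes past it.

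The 4 probes of Hbb-bt disagreed in this comparison. The differences were 2.40, 2.49 and 2.63 for 3 of them and 3.93 for the probe that was brightest at E10.5 MafG+/+, so their mean of 2.86 had a standard deviation of 0.72 over probes. In folds, this probe was 15.3-fold higher at E10.5 and the other 3 were 5.26-fold to 6.19-fold higher. The same probe did not stand apart between both E10.5 pools. All 4 were higher at E10.5, so the direction held for each and the size did not. The labels give a mixed background and do not state which beta-globin alleles the pools carried.

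Between these days the 2 probes of Hbb-bh1 again differed in sign, at 0.14 and -0.17. The gene's mean turned sign with normexp background correction, quantile normalization, spike-in scaling and the brightest probe, so no direction is given for it. Its brightest spike-in counterpart was at -0.37.

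The comparison of the triple null pool at E10.5 with the MafG+/+ pool at E9.5 sets the mutants beside embryos a day younger. Of the 7 genes, 3 were at least 2-fold lower in the mutants, Hbq1b, Hbb-bt and Hbq1a, beside 0.527% of 12521 genes with signal in both pools, and none was higher by 2-fold, beside 0.256% (0.783% in either direction). The median was -0.62, beside 0.01 over all genes. Hbb-y at -0.14 and Hbb-bh1 at -0.15 differed by less than the scanner error, and Hba-x at -0.28 by little more than it. Hba-a1 was 1.53-fold lower.

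Hbq1b was 6.70-fold lower in the mutants than at E9.5 (-2.74), with only 3 of 12521 genes lower still; with normexp background correction the difference was -2.15. Hbb-bt was 3.80-fold lower as a mean of -1.92 over its probes, of which 3 lay between -2.38 and -2.09 and the fourth, the same probe as before, at -0.86. With that brightest probe alone Hbb-bt was under 2-fold apart. Hbq1a was at -1.01, and at -0.50 with normexp background correction. All 7 globin genes had their lowest level in the triple null pool, below both MafG+/+ pools. For Hbb-y against E9.5, and for Hbb-bh1 against both pools, this was by less than the scanner error. Of the 2 Hbb-bh1 probes, 1 was lowest in the E10.5 MafG+/+ pool. By sign alone, 5206 of 12529 genes were lower in the triple null than in the E10.5 MafG+/+ pool. Against the E9.5 pool 6074 of 12521 were lower, and genes lowest in the triple null pool were not counted. The 3 comparisons share arrays with each other and are not independent.

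**Figure D4:**
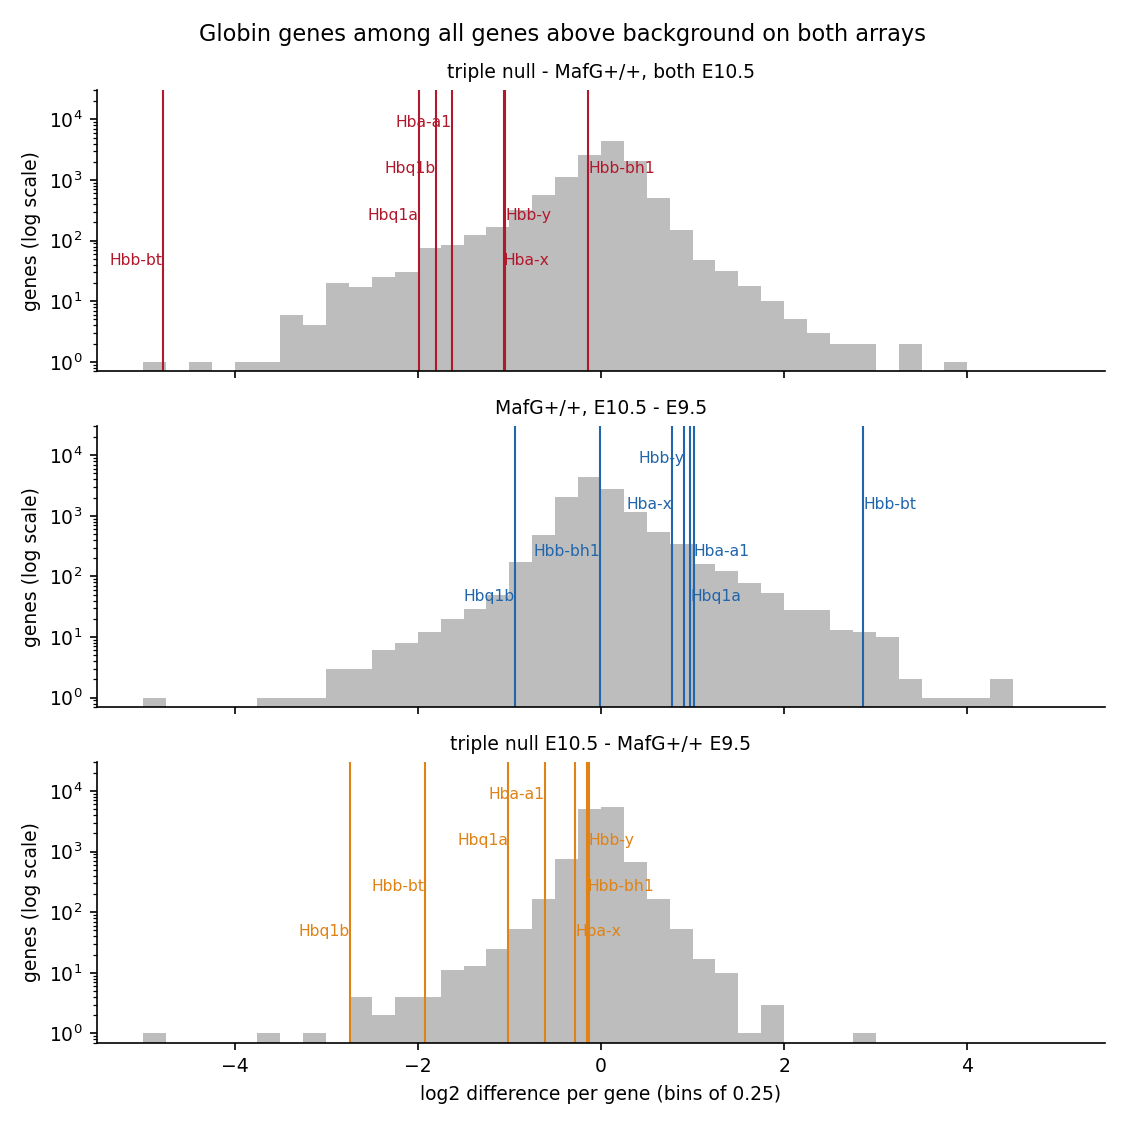
Number of genes (vertical axis, log scale) by log2 difference (horizontal axis, bins of 0.25) over all genes above background on both arrays of each comparison, with a line at each globin gene; genes beyond 5 in size are in the outermost bars. Hbb-bt is the lowest of 12529 genes in the top panel, at -4.79, and Hbq1b at -2.74 has 3 genes below it in the bottom panel.

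Genes that work with the globins were read from lists named with earlier results of these arrays known. The 17 red cell membrane and skeleton genes above background at E10.5 had a median of -1.24. None was at least 2-fold higher in the mutants, beside 0.982% of all genes, and 10 were at least 2-fold lower, beside 4.47%. Among them were the Rh antigen gene Rhd (-2.80), the Kell antigen gene Kel (-1.92), the anion exchanger gene Slc4a1 (-1.80) and the water channel gene Aqp8 (-1.71). Tspo2 was at 0.73. Their median lay between that of Hba-x and that of Hba-a1.

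The 20 regulators of globin genes had a median of -0.06 between both E10.5 pools. None was at least 2-fold higher in the mutants, beside 0.982% of all genes, and 4 were at least 2-fold lower, beside 4.47%. These were Bcl11a (-3.48), Gfi1b (-1.76), Klf1 (-1.64) and Runx1 (-1.29). Klf1, which binds CACCC boxes and drives adult beta-globin, had levels of -0.69, 0.94 and 0.13 for the triple null, E10.5 MafG+/+ and E9.5 MafG+/+ pools, and Gata1 had -2.65, -1.69 and -2.18. Both were highest at E10.5 MafG+/+, as were Hba-x, Hba-a1, Hbq1a, Hbb-y and Hbb-bt. Nfe2, the p45 partner of small Maf proteins in NF-E2, was at -0.62, and Ldb1 and Zfpm1, cofactors of Gata1, were at 0.01 and -0.06.

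Bcl11a, a repressor of embryonic globin genes that neurons also express, was 14.6-fold higher at E10.5 MafG+/+ than at E9.5 and 11.2-fold lower in the mutants. It was the 1 regulator of 19 at least 2-fold apart between the MafG+/+ days, beside 5.19% of all genes. No regulator was at least 2-fold apart between the triple null and E9.5 MafG+/+ pools, where Klf1 was at -0.82 and Gfi1b at -0.78. Over all genes that share was 0.783%.

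Haem supply genes had a median of -0.25. Alas2, the erythroid enzyme that begins haem synthesis, was the 1 of 12 at least 2-fold lower in the mutants at E10.5 (-1.28). The share over all genes was 4.47%. The ferrochelatase gene Fech was at -0.89 and the mitochondrial transporter gene Abcb10 at -0.77, while Alad was at -0.21 and Urod at -0.35. Between the MafG+/+ days Alas2 was 2.24-fold higher at E10.5, the 1 gene of 12 so far apart, beside 5.19% of all genes.

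The red cell membrane genes had a median of 0.70 between the MafG+/+ days, with 5 of 17 at least 2-fold higher at E10.5, beside 4.12% of all genes. Between the triple null and E9.5 MafG+/+ pools their median was -0.36. Globins outside red cells were also read: the muscle oxygen store Mb, the widely expressed Cygb and the neuronal Ngb were at -0.29, -0.38 and 0.24 between both E10.5 pools. None of these 3 was 2-fold apart in any comparison. Over all genes 5.45% (both E10.5 pools), 5.19% (MafG+/+ days) and 0.783% (triple null against E9.5 MafG+/+) were so far apart.

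**Figure D5:**
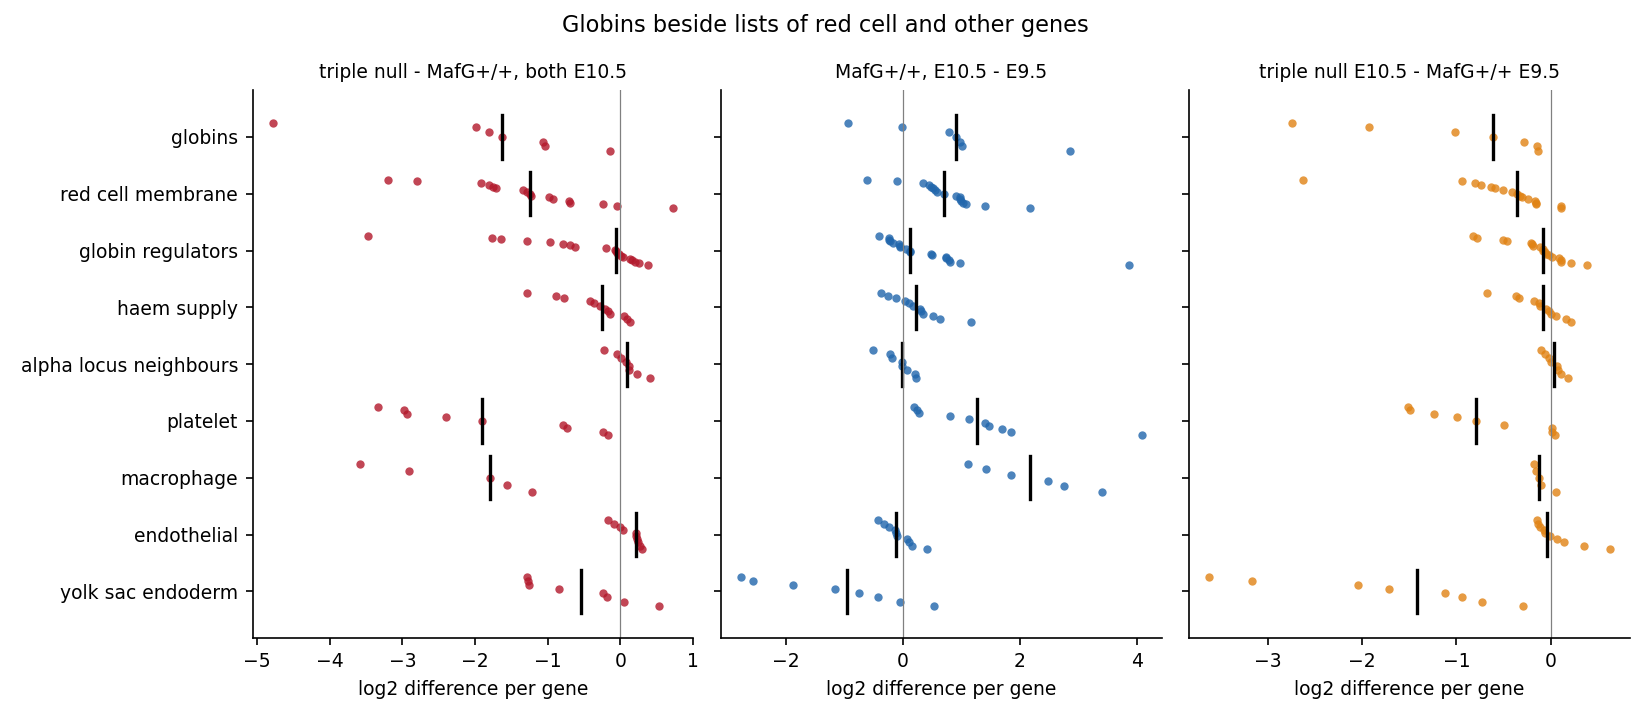
Log2 difference of each gene above background on both arrays (points) by gene list (rows) in the 3 comparisons (panels), with a bar at the median of each list. At E10.5 the globin median (-1.63) lies beside those of the red cell membrane (-1.24), platelet (-1.91) and macrophage (-1.80) lists, while the endothelial list is at 0.22.

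Markers of other cell types were read beside the globins. Of 9 platelet genes above background on both E10.5 arrays, 5 were at least 2-fold lower in the mutants (median -1.91), and of 5 macrophage genes all 5 were (median -1.80). Over all genes 4.47% were so far lower and 5.45% so far apart in either direction. Endothelial genes had none of 10 at least 2-fold apart (median 0.22), and yolk sac endoderm genes had 3 of 8 lower (median -0.54, or -0.02 with normexp background correction). Those lower were Ttr (-1.28), Apoa1 (-1.28) and Afp (-1.26), while Amn was at 0.54 and Rhox5 at 0.05. Summed scaled signals of the platelet list were 2.44, 7.02 and 3.24 for the triple null, E10.5 MafG+/+ and E9.5 MafG+/+ pools, those of the macrophage list 0.80, 3.11 and 0.86, those of the endothelial list 18.1, 16.6 and 16.5, and those of the yolk sac list 12.2, 24.0 and 22.1. The platelet gene Selp was not well above background on any array, Ppbp was not in the mutants alone, the macrophage genes Ptprc and Ly86 were not in the mutants or at E9.5, and Aif1 was not in the mutants alone. The yolk sac sums are weighted by its brightest gene, Afp, which was at 0.52 between the MafG+/+ days, whereas 7 of the 8 genes were lower at E10.5 than at E9.5, 4 of them by 2-fold or more (median -0.96). Over all genes 1.07% were so far lower between the MafG+/+ days. Between the triple null and E9.5 MafG+/+ pools 5 of 8 yolk sac endoderm genes were lower by 2-fold or more (median -1.41), among them Spp2 (-3.62), Apoa1 (-3.17) and Amn (-2.04). The share over all genes was 0.527%. The part of these cell types in the globin values was not tested.

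The genes most like each globin over the 3 arrays were taken among genes above background on all arrays and at or above the median level. Likeness was the Euclidean distance between the 3 levels after each gene's mean was removed, so with 3 arrays many genes can match by chance. Nearest to Hba-a1 were Slc4a1 (distance 0.15), Klf1 (0.17), Acp5 (0.18), Dcn (0.19) and Sh3gl3 (0.20). Slc4a1 (0.16) and Klf1 (0.25) were also nearest to Hbq1a, followed by Hba-a1 (0.31). Nearest to Hba-x were Lmna (0.02) and Mgst3 (0.06), and to Hbb-y Nbl1 (0.02) and Mapk8ip2 (0.03).

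No gene lay close to the remaining patterns with large differences. The nearest to Hbb-bt was the platelet gene Pf4 at a distance of 1.33, with differences of -2.93 and 1.69 where Hbb-bt had -4.79 and 2.86 for the E10.5 pools (triple null minus MafG+/+) and for the MafG+/+ days. The nearest to Hbq1b was Lhx5 at 1.28. For Hbb-bh1, whose 3 levels hardly differed, H1f10, Brd2 and Gaa lay within 0.0058.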

How the data were processed

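Scanner files of 3 arrays were used, which per the file headers the authors made with Agilent Feature Extraction 9.5.3.1 (protocol GE1-v5_95_Feb07, design 014868, annotation build mm7); the deposited signal is the scanner's linear intensity with background already subtracted. The deposited value table holds the same intensity, rounded, with no centring (largest difference 0.497%; medians 84.0, 115 and 83.4 for the triple null, E10.5 and E9.5 MafG+/+ pools). The slide and the scan date were common to the 3 arrays. The log2 intensity minus the 75th percentile (1078, 1420 and 1064) was averaged over spots of a probe, control and outlier-marked spots left out. Of 41170 probes, 22950 had 1 gene symbol through a RefSeq table of GRCm38.p6, used for names and order. A gene is the mean of its probes with signal above background on any array. With no replicates, no test was run; 2-fold was a size. A bound ("at least") is the bright level over the higher of the dim level and the lowest signal above background. The 10 gene lists, the members and the naming rule (list members at least 2-fold apart or else the 2 farthest, of which some are printed; the 5 nearest patterns) were chosen with earlier results of these data known. Some genes of the lists and nearest patterns are not reported here. The steps were tested on simulated data. Alternatives were normexp (offset 50), quantile normalization, scaling on detected probes or on 9 spike-in probes, other probe filters, the brightest probe, the value table, outlier spots kept, and sizes of 3-fold and 1.5-fold. Python 3.11.15 with pandas 2.3.3 and numpy 2.4.6, and R 4.3.3 with limma 3.58.1, were used.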

Additional observations from a re-analysis of the deposited data

How the results depend on the processing

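No paired analysis was possible because each group is 1 array. Of 189 recomputed globin values, 4 changed sign, all of Hbb-bh1 between the MafG+/+ days (0.01 with normexp, 0.24 with quantile normalization, 0.02 with spike-in scaling, 0.14 with the brightest probe), and 15 moved by more than the scanner error. The count of globin genes at least 2-fold apart between the MafG+/+ days was 2; it was 1 when scaled on the median of detected probes, 3 with quantile normalization (Hbb-y at 1.11) and 3 with spike-in scaling (Hbq1a at 1.01), 1 at 3-fold and 6 at 1.5-fold. The counts of 6 and 3 in the other comparisons ran from 4 to 6 and from 2 to 4. No scaling turned the sign of a globin list median. Signal over background limits Hbq1a, whose difference at E10.5 ran from -2.05 to -0.95. The cause of these moves was not tested.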

Other observations

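On these arrays a theta pair with nearly the same promoter window read differently by day. Between E10.5 MafG+/+ and E9.5, Hbq1a was at 0.98 and Hbq1b at -0.94, each from 1 probe; this was seen after the values were known. With normexp background correction they were at 0.45 and -0.92. Their cluster neighbours Hba-x and Hba-a1 were at 0.78 and 1.01.

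The Hbb-bt probe that stood apart did so on the E9.5 array alone. Relative to the probe of next highest signal, its level was higher by 1.15 on the triple null array and by 1.17 on the E10.5 MafG+/+ array, and lower by 0.37 on the E9.5 array.

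The brightest spike-in probe had nearly the same intensity on all arrays (293966 to 303094), while a spike-in of 7022 to 9571 followed the 75th percentile of its array. Its spots varied with an SD of 0.17 to 0.18 (log2), beside 0.04 to 0.08 for that dimmer probe.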
